A study of Mus musculus with 14 samples.

Results

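The 10 genes described here are the factors that license origins of DNA replication: the subunits of the helicase ring Mcm2, Mcm3, Mcm4, Mcm5, Mcm6 and Mcm7, the loading factors Cdc6 and Cdt1, the Cdt1 inhibitor geminin (Gmnn) and the later acting Mcm10. They were chosen by name, for their role, and are 10 of 24064 genes in the count table. All 10 had reads in the oocytes and passed the filter on low counts that left 9198 genes for testing.

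Licensing is the step that marks an origin as ready to fire. The origin recognition complex binds DNA, Cdc6 and Cdt1 join it, and together they load the MCM ring around the double helix; geminin binds Cdt1 and blocks loading, so that an origin is licensed only once per cell cycle. Kinases then turn the loaded ring into an active helicase, with the help of Mcm10. The egg stores these factors because the embryo replicates its DNA before its own genome provides them in quantity.

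RNA was sequenced from single ovulated mouse oocytes of 3 genotypes. Control oocytes were 4 wt/wt oocytes of strain C57BL/6J and 1 f/f oocyte, which carries both floxed Kdm1a alleles without cre, on a mixed B6;129 background. The 5 mutant oocytes (mko/mko, D1, D2, D3, D4 and D7) came from floxed females of that mixed background in which a Zp3-cre transgene, active in the growing oocyte, removes the first exon of Kdm1a, the gene of a histone H3 lysine demethylase. Strain and genotype therefore cannot be told apart when wt/wt is set against mutant, and the f/f oocyte is the single control of the mutants' background. Nothing in the labels says which oocytes came from the same female, so the p-values below measure the spread between oocytes only.

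The sample descriptions number each of the 14 libraries as an oocyte of its own, while the titles give the f/f libraries 1 name (C3) and D3, D4 and D7 a pair of libraries each, told apart by the suffix DNA. Libraries that share a name were joined here, which gives the 10 oocytes that the study's methods state. With each library taken as its own oocyte 0 of the 10 licensing genes were called as well, but Gmnn (-0.92, adjusted p = 0.0132), Cdt1 (0.95, adjusted p = 0.0216) and Mcm2 (-0.98, adjusted p = 0.0222) then passed the adjusted p in the same edgeR test.

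Total counts ranged from 1375187 to 1892015 in the wt/wt oocytes and from 2016701 to 6926076 in the mutant oocytes, and stood at 6928548 in the f/f oocyte, which has 2 libraries, as have D3, D4 and D7. Levels are given as CPM, counts scaled to a common library size of 1000000, adjusted by the trimmed mean of M-values (TMM). Kdm1a stood at 38.7, 18.6, 34.8 and 12.1 CPM in the wt/wt oocytes, at 149 CPM in the f/f oocyte and between 0 and 4.99 CPM in the mutant oocytes, so no oocyte went against its label. Reads near the 3′ end lie outside the deleted first exon, so these counts show less transcript and not the deletion itself. All 16 oocyte markers had counts in each genotype, with summed levels of 12895 to 30610 CPM in wt/wt, 53609 CPM in f/f and 60767 to 119810 CPM in mutant oocytes. Of 14 cumulus and granulosa markers, the defining genes Amh, Foxl2, Fshr, Inha, Inhba and Wt1 were at 0 in all oocytes. The 14 together summed to 18.8 to 68.0 CPM in wt/wt, 65.3 CPM in f/f and 84.7 to 149.9 CPM in mutant oocytes, most of it Cyp19a1 in all oocytes but wt/wt oocyte 5. Both marker sums thus moved with genotype, and their part in the differences below was not tested.

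The promoters of Mcm2, Mcm3, Mcm6 and Cdt1 are shown first, because E2F factors, the classical regulators of licensing genes, bind sites of the kind that these sequences do or do not hold. Each is the RefSeq window of 300 bases on GRCm38.p6, from 250 bases before to 50 after the start of the gene, read 5′ to 3′ on the strand of the gene. Mcm2 lies at chr6:88898731-88899030 (minus strand), Mcm3 at chr1:20820263-20820562 (minus), Mcm6 at chr1:128359656-128359955 (minus) and Cdt1 at chr8:122567765-122568064 (plus). Capitals mark the E2F motifs TTTCCCGC and TTTGGCGC and the CCAAT box, each on either strand.
Mcm2: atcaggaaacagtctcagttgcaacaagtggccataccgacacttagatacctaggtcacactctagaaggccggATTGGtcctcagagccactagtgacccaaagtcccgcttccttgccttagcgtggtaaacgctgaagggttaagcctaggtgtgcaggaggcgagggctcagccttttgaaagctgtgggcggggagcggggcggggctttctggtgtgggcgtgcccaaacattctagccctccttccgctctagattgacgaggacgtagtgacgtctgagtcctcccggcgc
Mcm3: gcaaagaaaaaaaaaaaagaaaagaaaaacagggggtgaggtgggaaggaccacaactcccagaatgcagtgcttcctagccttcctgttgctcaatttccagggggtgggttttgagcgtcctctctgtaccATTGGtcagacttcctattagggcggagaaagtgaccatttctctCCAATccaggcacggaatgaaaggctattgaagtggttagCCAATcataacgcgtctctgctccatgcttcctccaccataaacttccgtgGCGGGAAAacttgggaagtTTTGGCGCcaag
Mcm6: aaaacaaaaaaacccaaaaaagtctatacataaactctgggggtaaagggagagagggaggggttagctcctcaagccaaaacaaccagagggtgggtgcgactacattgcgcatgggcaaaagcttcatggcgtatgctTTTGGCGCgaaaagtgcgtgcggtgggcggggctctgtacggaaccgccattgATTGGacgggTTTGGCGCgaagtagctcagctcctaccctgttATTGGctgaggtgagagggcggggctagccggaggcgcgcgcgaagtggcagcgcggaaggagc
Cdt1: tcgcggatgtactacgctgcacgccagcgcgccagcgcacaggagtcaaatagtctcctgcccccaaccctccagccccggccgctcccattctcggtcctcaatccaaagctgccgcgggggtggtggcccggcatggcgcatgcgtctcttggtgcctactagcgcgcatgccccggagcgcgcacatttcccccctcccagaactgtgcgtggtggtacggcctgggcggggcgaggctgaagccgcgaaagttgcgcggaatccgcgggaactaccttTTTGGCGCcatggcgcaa

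Mcm6 held 2 copies of TTTGGCGC, with first letters 110 and 47 bases before the start. Mcm3 held both E2F motifs after its start and 3 CCAAT boxes before it, and Cdt1 held 1 TTTGGCGC 32 bases after its start and no CCAAT box. Mcm2 held neither E2F motif and 1 CCAAT box. Windows were found for 8 of the 10 members, all but Mcm4, at chr16:15623897-15637400, and Gmnn, at chr13:24751845-24761923 (mm10, both on the minus strand). An E2F motif stood in those of 6 (Mcm3, Mcm5, Mcm6, Mcm7, Cdc6 and Cdt1), that is 75.0% of 8, against 1.56% of all 32851 promoter windows. A CCAAT box stood in 6 of the 8 members and in 37.4% of all windows. Cdt1, whose fitted level was higher in mutant oocytes, and Cdc6, whose fitted level was lower, each held 1 E2F motif.

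No licensing gene was called in mutant against control oocytes. A call required a change of at least 1 on the log2 scale, in either direction, together with an adjusted p below 0.05 in the quasi-likelihood test of edgeR, adjusted by Benjamini-Hochberg over the 9198 genes. Among all genes 25.9% were called, 14.7% higher and 11.2% lower in mutant oocytes, against 0 of 10 here. DESeq2 and limma called 0 of the 10 as well, though in both tools Cdt1 (adjusted p = 0.0282 and 0.0198) and Gmnn (0.0294 and 0.0464) passed the adjusted p without the required fold. At an unadjusted p under 0.05 stood 3 of the 10 (Mcm2, Cdt1 and Gmnn), 30.0% against 39.4% of all genes tested. Of the 10, 4 had a higher and 6 a lower fitted level in mutant oocytes, and their median log2 fold change was -0.36 beside 0.17 over all genes. A low CPM of a transcript in a single oocyte can stand, among other things, for fewer molecules or for more RNA of other genes. The counts cannot tell these apart. The cDNA was also primed on poly(A) tails, whose length was not measured.

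**Figure D1:**
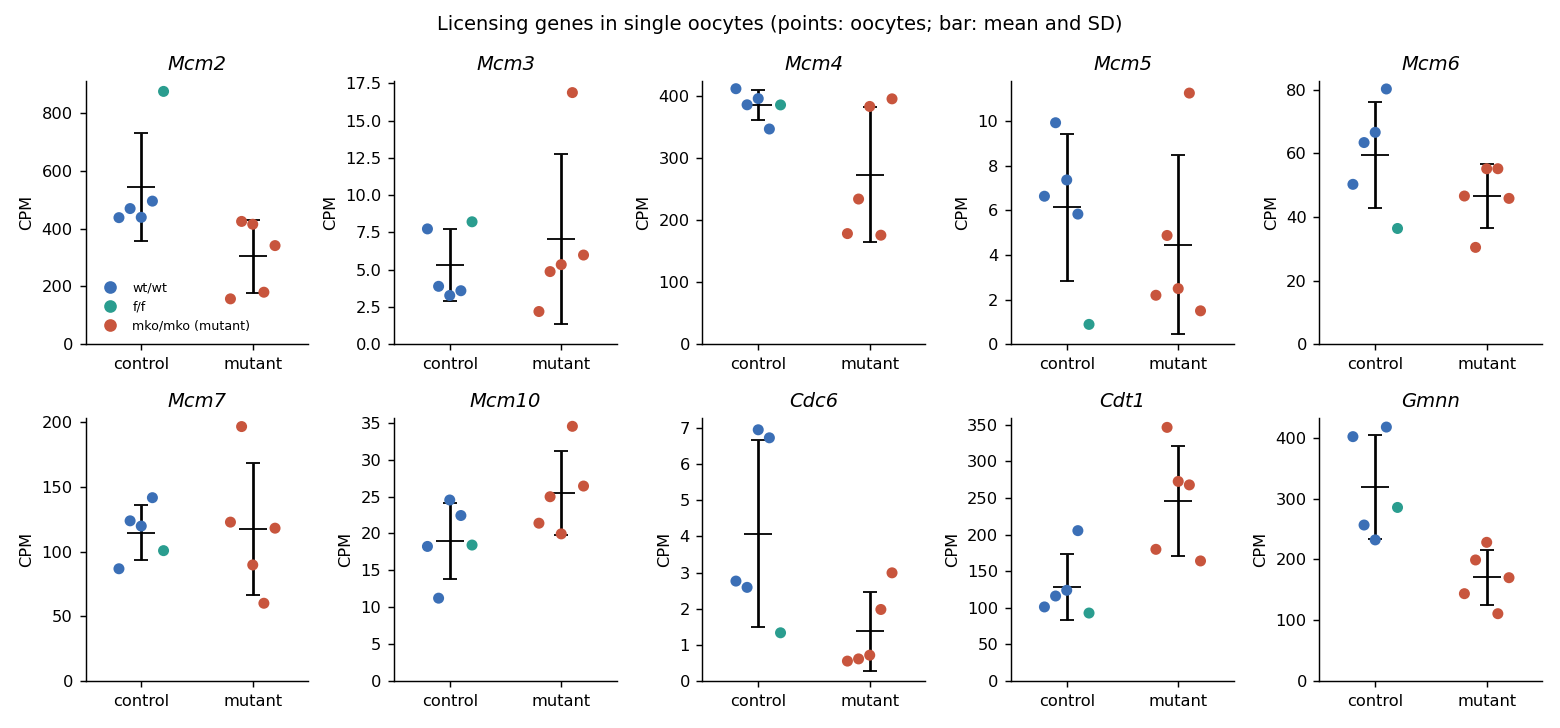
Level in CPM (y axis) of each licensing gene in each oocyte, for control (wt/wt and f/f) and mutant (mko/mko) oocytes, with the mean and SD of the 5 oocytes of each side. Mutant and control points do not overlap for Mcm2 and Gmnn, and do for the other 8 genes. Among all genes tested 16.2% had groups that did not overlap.

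Each mutant oocyte had less Gmnn, the transcript of the Cdt1 inhibitor geminin, than each control oocyte, and 3 of 5 had more Cdt1 than any control oocyte, but neither difference was called. Gmnn stood at 402, 257, 232 and 418 CPM in wt/wt oocytes 1, 3, 4 and 5, at 286 CPM in the f/f oocyte and at 144, 199, 228, 111 and 170.0 CPM in D1, D2, D3, D4 and D7. The highest mutant oocyte, D3, lay just under the lowest control oocyte, so the groups did not overlap; 16.2% of all genes tested had groups that did not overlap. The means were 319 ± 85.5 CPM (SD, n = 5) in control and 170.4 ± 46.0 CPM (SD, n = 5) in mutant oocytes. On the log2 scale the difference for Gmnn was -0.91 (SE 0.33, adjusted p = 0.0515), which misses the threshold narrowly. Against the 4 wt/wt oocytes alone it was -0.93 (SE 0.34, adjusted p = 0.0425), past the adjusted p but under the fold required of a call.

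Cdt1, which carries the MCM ring to the origin, stood at 101, 116, 124 and 205 CPM in the wt/wt oocytes, at 92.8 CPM in the f/f oocyte and at 179.9, 347, 273, 268 and 164 CPM in the mutant oocytes, in the same order. Wt/wt oocyte 5 was the one control oocyte within the mutant range, above D1 and D7. The means were 128 ± 45.1 CPM (SD, n = 5) in control and 246 ± 74.9 CPM (SD, n = 5) in mutant oocytes. On the log2 scale the difference for Cdt1 was 0.95 (SE 0.35, adjusted p = 0.0529), with an interval of 0.21 to 1.68 before adjustment. Without wt/wt oocyte 5 it was 1.22 (adjusted p = 0.0213) and without D7 it was 1.09 (adjusted p = 0.0399), and Cdt1 was called in both. With GC and length trends removed it was 0.44 (adjusted p = 0.380) and scaled by library totals it was also 0.44 (adjusted p = 0.441), so the call of Cdt1 turned on single oocytes and its size on the scaling and that correction.

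The ratio of Gmnn to Cdt1 within an oocyte needs no scaling between libraries. Gmnn counts exceeded Cdt1 counts in every control oocyte, at 3.98, 2.21, 1.87 and 2.03 Gmnn counts per Cdt1 count in the wt/wt oocytes and 3.08 in the f/f oocyte. In the mutant oocytes the ratio was 0.799 in D1, 0.575 in D2, 0.837 in D3, 0.413 in D4 and 1.04 in D7, so Cdt1 had the more counts in 4 of 5. The groups did not overlap, and the f/f oocyte, of the mutants' strain background, lay among the wt/wt oocytes. The mean log2 ratio was 1.34 ± 0.45 (SD, n = 5) in control and -0.52 ± 0.52 (SD, n = 5) in mutant oocytes, a difference of -1.86 that corresponds to a ratio 3.62-fold lower in mutant oocytes. Since both genes were among the members that lay farthest from 0, the ratio is given as a description without a test. Over the 13 alternatives computed for it, which leave out each oocyte in turn, treat each library as a sample or change the pseudocount, the fold ran from 3.17 to 3.99.

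**Figure D2:**
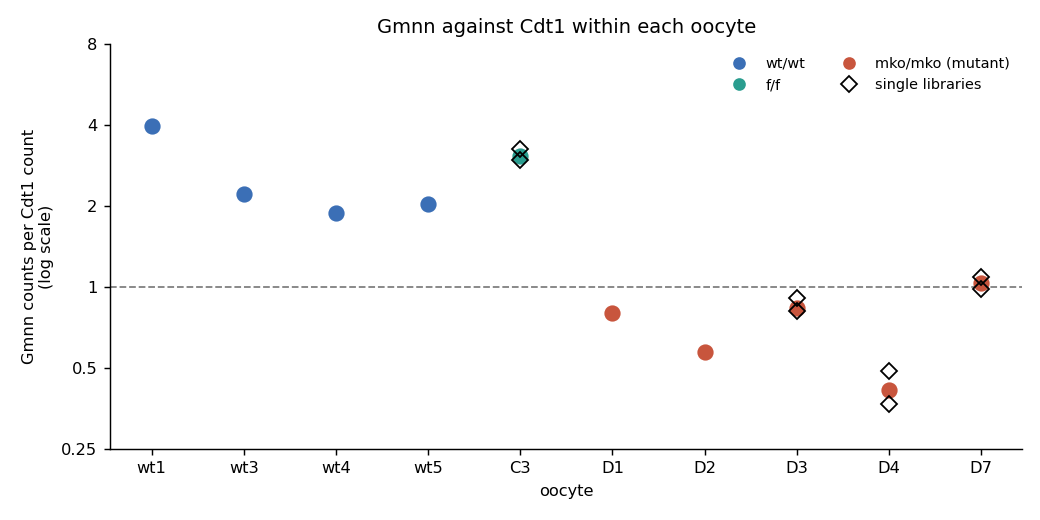
Gmnn counts per Cdt1 count (y axis, log scale) in each oocyte; filled points are oocytes and open diamonds the 2 libraries of an oocyte where it has 2. All 5 control oocytes lie at 1.87 or above and all 5 mutant oocytes at 1.04 or below, and the 2 libraries of an oocyte lie close together.

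The 2 libraries of an oocyte gave nearly the same ratio, 2.97 and 3.26 in the f/f oocyte, 0.906 and 0.814 in D3, 0.488 and 0.366 in D4 and 1.08 and 0.980 in D7. A count ratio between genes is no ratio of molecules. The transcripts are 963 bases (Gmnn) and 2189 bases (Cdt1) long, and reads reach at most 3 kb inward of the 3′ end. Per kb, Gmnn stood at 340.0 ± 100.1 CPM and Cdt1 at 62.4 ± 21.4 CPM in the wt/wt oocytes (SD, n = 4). Gm20388, a longer gene model that overlaps Cdt1 on its strand, was not analysed here. What is compared between genotypes is the shift of the ratio, in which a length factor common to all oocytes drops out. Trends with GC or length that differ between libraries do not drop out. The GC content was 45.9% for Gmnn and 58.8% for Cdt1. Removal of such trends was not among the alternatives computed for the ratio.

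Mcm2 was the one ring subunit whose groups did not overlap, as for 16.2% of all genes tested. It stood at 438, 469, 439 and 495 CPM in the wt/wt oocytes, at 874 CPM in the f/f oocyte and at 157, 425, 415, 179.8 and 341 CPM in the mutant oocytes. Each mutant oocyte lay under each control oocyte, D2 and D3 narrowly and D1 and D4 by far. The means were 543 ± 187 CPM (SD, n = 5) and 303 ± 128 CPM (SD, n = 5), and the log2 fold change was -0.84 (SE 0.37, adjusted p = 0.105). Without the f/f oocyte, the highest of all, the log2 fold change of Mcm2 was -0.59 (adjusted p = 0.206). The coefficient of variation of Mcm2 was 42.1% among the mutant oocytes, whose highest level was 2.71 times the lowest, and 34.4% among the 5 control oocytes, or 5.94% among the 4 wt/wt oocytes alone.

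Mcm4 was also uneven among the mutant oocytes, though not in the same order as Mcm2. It stood at 412, 386, 396 and 347 CPM in the wt/wt oocytes, at 386 CPM in the f/f oocyte and at 178, 234, 383, 176 and 395 CPM in the mutant oocytes. D1, D2 and D4 lay under all control oocytes, while D3 and D7 lay within the control range. D2, the highest mutant oocyte for Mcm2, was thus among the low ones for Mcm4, and D1 and D4 were low for both. The log2 fold change was -0.50 (SE 0.33, adjusted p = 0.281), with an interval of -1.19 to 0.20, which holds both 0 and -1. The start of Mcm4 lies 466 bases from that of Prkdc, head to head, which had 11 counts over all oocytes and was too low to test.

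Mcm6, Mcm7 and Mcm10 did not pass the test in either direction. Mcm6 stood at 50.3, 63.4, 66.7 and 80.3 CPM in the wt/wt oocytes, at 36.4 CPM in the f/f oocyte and at 46.6, 30.5, 55.2, 55.2 and 45.9 CPM in the mutant oocytes. Its log2 fold change was -0.34 (SE 0.34, adjusted p = 0.478). The f/f oocyte lay under all wt/wt oocytes and within the range of the mutants with which it shares its background.

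Mcm7 stood at 86.8, 124, 120 and 142 CPM in the wt/wt oocytes, at 101 CPM in the f/f oocyte and at 123, 197, 89.7, 60.1 and 118 CPM in the mutant oocytes. D2 lay above and D4 below all controls, and the log2 fold change was 0.03 (SE 0.35, adjusted p = 0.954). The interval of -0.71 to 0.78 leaves room for a fold from 0.610 to 1.72. Mcm7 overlaps Cops6 and Ap4m1 on the other strand, and strand use in counting is not given in the sources used here. Ap4m1 averaged 7.97 CPM in control and 20.3 CPM in mutant oocytes (log2 fold change 1.32, adjusted p = 0.0516) and Cops6 had 34 counts in all. Mcm7 also hosts the microRNA genes Mir25, Mir93 and Mir106b, which were at 0 counts in all oocytes. Poly(A)-primed cDNA is not made to capture mature microRNAs, so these counts do not show their absence.

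Mcm10, which joins the helicase when it is activated, stood at 18.2, 11.2, 24.5 and 22.4 CPM in the wt/wt oocytes, at 18.4 CPM in the f/f oocyte and at 21.4, 24.98, 19.9, 34.5 and 26.4 CPM in the mutant oocytes. D2, D4 and D7 lay above all controls, and the means were 19.0 ± 5.10 CPM (SD, n = 5) in control and 25.5 ± 5.71 CPM (SD, n = 5) in mutant oocytes, but the log2 fold change was 0.43 (SE 0.38, adjusted p = 0.423). Scaled by library totals in place of TMM, the fitted direction of Mcm7 and of Mcm10 turned, to -0.47 and -0.0074.

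Mcm3, Mcm5 and Cdc6 were low in all oocytes, and their differences rest on few reads. Mcm3 had 8 to 37 counts in control and 4 to 111 counts in mutant oocytes. It stood at 7.74, 3.88, 3.27 and 3.59 CPM in the wt/wt oocytes, at 8.21 CPM in the f/f oocyte and at 2.19, 4.87, 5.34, 16.9 and 5.98 CPM in the mutant oocytes. D4 alone lay above the controls, and the log2 fold change of 0.43 (SE 0.60, adjusted p = 0.62) turned to -0.21 without it.

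Mcm5 stood at 6.63, 9.93, 7.36 and 5.83 CPM in the wt/wt oocytes and at 0.888 CPM in the f/f oocyte, where it had 4 counts. The mutant oocytes had 2.19, 4.87, 2.49, 11.3 and 1.496 CPM, so D4 again lay highest and the other 4 lay under all wt/wt oocytes. The f/f oocyte lay below all of them, and the log2 fold change was -0.39 (SE 0.69, adjusted p = 0.715), or -1.12 without D4 (adjusted p = 0.273). Since the f/f oocyte and most mutant oocytes lay low together, strain background and mutation cannot be told apart for Mcm5.

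Cdc6, the ATPase that recruits Cdt1 to the origin, had a log2 fold change of -1.50 (SE 0.76, adjusted p = 0.153). It stood at 2.76, 2.59, 6.95 and 6.73 CPM in the wt/wt oocytes, at 1.33 CPM in the f/f oocyte and at 0.548, 0.609, 0.712, 1.98 and 2.99 CPM in the mutant oocytes. These values come from 5 to 17 counts in control and 1 to 13 counts in mutant oocytes, and D1, D2 and D3, with 1, 1 and 2 counts, lie under the floor of 3 counts. D7 lay above wt/wt oocytes 1 and 3. The interval of -3.10 to 0.10 shows that at this depth neither a strong loss of Cdc6 nor an equal level can be told.

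**Figure D3:**
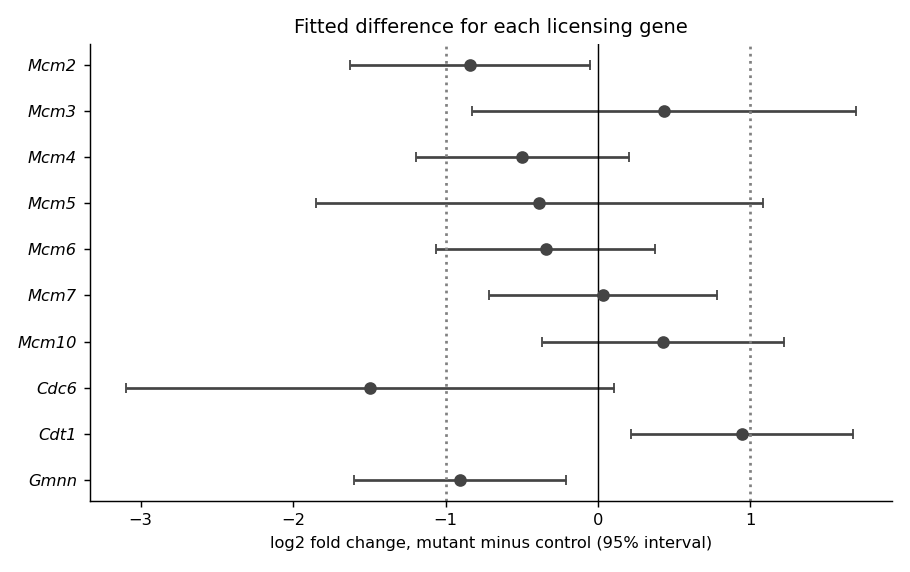
Fitted log2 fold change of each licensing gene, mutant minus control (x axis), with its 95% interval before adjustment; dotted lines stand at the fold required of a call. The intervals of Mcm2, Cdt1 and Gmnn lie off 0, that of Cdc6 is the widest at -3.10 to 0.10, and no point is past both the fold and the adjusted p.

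The 6 ring subunits are needed in equal numbers, but their transcripts were far from equal in the egg. Per kb of transcript and over the 4 wt/wt oocytes, Mcm2 stood at 136 ± 8.11 CPM, Mcm4 at 107 ± 7.70 CPM and Mcm7 at 39.9 ± 7.74 CPM (SD). Mcm6 stood at 14.97 ± 2.83 CPM, Mcm5 at 2.20 ± 0.52 CPM and Mcm3 at 1.52 ± 0.69 CPM per kb on the same scale. Mcm2, Mcm4, Mcm7 and Mcm6 followed in this order in each wt/wt oocyte, while the ranges of Mcm3 and Mcm5 overlap. By level in wt/wt oocytes before division by length, Mcm2 ranked above 96.6% and Mcm3 above 34.4% of the genes tested. Within a wt/wt oocyte the highest subunit exceeded the lowest by 66.2-fold to 124-fold per kb.

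Dividing by at most 3 kb of transcript, the reach of the library from the 3′ end, gave 153 CPM per kb for Mcm2, 128 for Mcm4, 39.9 for Mcm7, 21.7 for Mcm6, 2.48 for Mcm5 and 1.54 for Mcm3, the same order. In the mutant oocytes Mcm2 and Mcm4 also led, but Mcm4 exceeded Mcm2 in D1 and D7 and Mcm7 exceeded Mcm4 in D2. In each of the 10 oocytes Mcm3 and Mcm5 were the lowest pair. Summed over the 6 subunits, before division by length, the wt/wt oocytes had 1001 to 1073 CPM and the f/f oocyte 1406 CPM. The mutant oocytes had 509 CPM in D1, 499 CPM in D4, 896 CPM in D2, 951 CPM in D3 and 908 CPM in D7, all under the lowest control oocyte, with means of 752 ± 228 CPM (SD, n = 5) and 1114 ± 166 CPM (SD, n = 5) in mutant and control oocytes. D1 and D4 thus held the lowest sums, through Mcm2 and Mcm4.

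**Figure D4:**
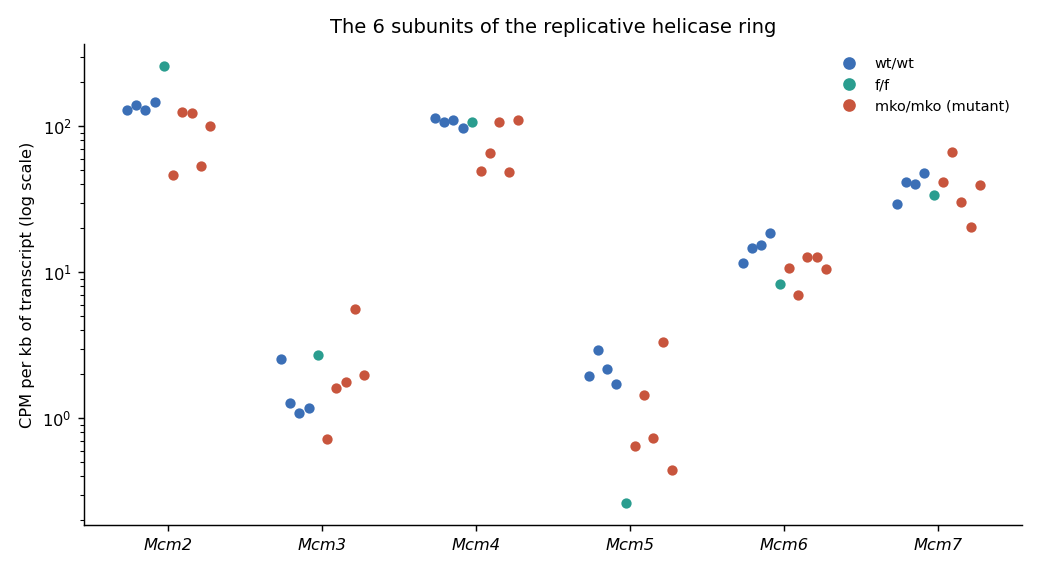
Level of each helicase ring subunit in CPM per kb of transcript (y axis, log scale), 1 point per oocyte in the order wt/wt, f/f, mutant. Mcm2 and Mcm4 lie between 96.6 and 259 in control oocytes and Mcm3 and Mcm5 between 0.263 and 5.57 in all oocytes.

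Whether libraries of a shared name come from 1 oocyte bears on these spreads, and the labels do not say what the suffix that separates them means. Spearman correlations between libraries of a shared name were 0.940 to 0.979, against at most 0.860 to 0.908 with any other library. If they are libraries of 1 oocyte, their gaps are technical. Over the f/f oocyte, D3, D4 and D7, the larger of the 2 libraries exceeded the smaller by a median of 1.13-fold for Gmnn and Mcm4, 1.23-fold for Mcm2 and 1.33-fold for Cdt1. For Mcm3 the median was 1.34-fold with a highest value of 4.39-fold in D7, and for Mcm5 and Cdc6 the medians were 2.12-fold and 2.03-fold.

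Of 78 genes in the related lists, 66 were tested and 22 were called, 13 higher and 9 lower in mutant oocytes, which is 33.3% against 25.9% of all genes. Their median log2 fold change was -0.13, and 0.086 without the f/f oocyte. The 13 called higher include genes with few or no control counts, such as Cdk2 and E2f6. These passed the filter on total counts through the mutant oocytes. Scaled by library totals, 26 were called, 10 higher and 16 lower, a scaling that moves the median of all genes by -0.39. The count was 12 without D1, 13 without D4 and 13 without wt/wt oocyte 4. These are 18.2%, 20.3% and 19.4% of the related genes tested, beside 17.6%, 22.1% and 18.7% of all genes in the same fits, a comparison added after seeing the data, so the share of the related genes was near that of all genes there. The counts that the lists below give without an oocyte are to be read against the same shares of all genes, which ran from 17.6% without D1 to 31.5% without the f/f oocyte.

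The origin recognition complex, the platform on which licensing starts, had 1 gene higher and 1 lower of 7 tested (28.6%), which are its 6 subunits and the associated protein Lrwd1. The median was 0.20, but -0.0037 without D4 and 0.85 without the f/f oocyte. Orc1, its regulated largest subunit, stood at 168, 187, 139 and 131 CPM in the wt/wt oocytes, at 157 CPM in the f/f oocyte and at 36.7, 57.9, 64.5, 42.0 and 33.4 CPM in the mutant oocytes. The lowest control had more than 2 times the level of the highest mutant oocyte. Orc1 fell by 1.74 on the log2 scale (SE 0.33, adjusted p = 0.0019), and it was called in all 23 alternatives computed. Orc3, a core subunit, stood at 137, 108, 81.4 and 90.6 CPM in the wt/wt, 261 CPM in the f/f and 339, 271, 341, 429 and 272 CPM in the mutant oocytes. It rose by 1.28 (SE 0.37, adjusted p = 0.0186), with the f/f oocyte close under the lowest mutant. Its call was lost in 3 of 23 alternatives: library totals, the replicate block, and without wt/wt oocyte 4 (adjusted p = 0.0520).

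Of 10 genes in the turnover of Cdt1 and geminin, which include an inhibitor of it, 3 were called higher and 2 lower, so 5 of 10 beside the 25.9% of all genes. The median was -0.12, but 0.21 without the f/f oocyte, and the calls numbered 3 without D1 or without wt/wt oocyte 4. Dtl and Skp2, which direct Cdt1 to ubiquitin ligases, both fell. Dtl stood between 91.5 and 227 CPM in control and between 43.3 and 79.1 CPM in mutant oocytes (log2 fold change -1.07, adjusted p = 0.0340). Skp2 stood between 35.9 and 68.2 CPM in control and between 7.15 and 31.9 CPM in mutant oocytes (log2 fold change -1.47, adjusted p = 0.0272). The groups did not overlap for either gene, as for 16.2% of all genes, but the call of Dtl was lost in 10 and that of Skp2 in 5 of 23 alternatives. Against the wt/wt oocytes alone Dtl had an adjusted p of 0.0636.

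Skp1a, the adaptor that links Skp2 to its ligase, rose by 3.25 (SE 0.55, adjusted p = 0.00105), from 51.1 to 250.3 CPM in control to 602 to 3378 CPM in mutant oocytes. Fzr1, an activator of the anaphase-promoting complex that targets geminin, rose by 3.07 (SE 0.70, adjusted p = 0.00586), from 1.29 to 7.99 CPM in control to 6.77 to 88.3 CPM in mutant oocytes. D3 was the one mutant oocyte within the control range for Fzr1. Fbxo5, an inhibitor of the same complex named after its values were seen, rose by 3.07 as well (SE 0.76, adjusted p = 0.00887). It stood between 0.863 and 7.18 CPM in control oocytes. The mutant oocytes had 25.8, 20.7, 9.26, 98.4 and 4.49 CPM in D1, D2, D3, D4 and D7, so D4 lay far above the others. No fit without D4 is given for Fbxo5. The call of Fzr1 was lost in 1 alternative, and that of Skp1a in none of 23.

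Among the MCM relatives, Mcm8 fell and no gene rose, of 3 tested, with a median of -1.35. Mcm8, a helicase of recombination repair, stood at 36.5, 46.6, 48.3 and 13.9 CPM in the wt/wt oocytes, at 17.3 CPM in the f/f oocyte and at 12.1, 11.6, 16.7, 7.00 and 16.5 CPM in the mutant oocytes. Wt/wt oocyte 5 lay within the mutant range. Its log2 fold change was -1.35 (SE 0.46, adjusted p = 0.0379), and the call was lost in 9 of 23 alternatives. The list had 0 calls without D1, D2, D4 or wt/wt oocyte 3 or 4, and 2 without D7 or wt/wt oocyte 5. Mcmdc2 and the geminin relatives Gmnc and Mcidas were under the filter.

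Of 19 tested genes for helicase activation and origin firing, 3 rose and 3 fell (31.6%), with a median of -0.35 that was -0.12 without wt/wt oocyte 3. The calls numbered 3 without D1 and 4 without D2, D4 or wt/wt oocyte 4. Gins2, higher, and Gins3, lower, are named after their values were seen, and the other 4 follow. Topbp1, a scaffold of origin firing and checkpoint signalling, rose by 3.64 (SE 0.88, adjusted p = 0.00779), from 0.409 to 13.5 CPM in control to 7.48 to 162 CPM in mutant oocytes. The size of this change rested on single oocytes, since it was 2.60 without D4 (adjusted p = 0.0303) and 4.72 without wt/wt oocyte 5 (adjusted p = 0.00278). Cdk2, a kinase that fires origins, had 3 counts over all control oocytes, at most 2 in any of them, and 236 over the mutant oocytes, 149 of them in D4. Pooled over oocytes this is a ratio of 70.5 with a counting interval of 23.8 to 344, which does not hold the spread between oocytes. Without D4 the pooled ratio was 46.6 and without the f/f oocyte, which had 2 of the 3 control counts, it was 139.8, values computed after seeing the data. Cdk2 passed the filter on total counts through the mutant oocytes. Dbf4, the activator of the Cdc7 kinase that acts on the loaded ring, stood between 269 and 931 CPM in control and between 232 and 348 CPM in mutant oocytes. It fell by 1.13 (SE 0.37, adjusted p = 0.0331), but the call was lost in 9 of 23 alternatives, among them those without wt/wt oocyte 1 or 4, the f/f oocyte, D1, D2, D4 or D7, with adjusted p of 0.0525 to 0.0884. Donson, a factor of helicase assembly, fell by 1.43 (SE 0.38, adjusted p = 0.0124). It stood between 154 and 277 CPM in wt/wt and between 47.2 and 129 CPM in mutant oocytes. The f/f oocyte, at 123 CPM, lay under all wt/wt oocytes and within the mutant range, under D7.

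At the replication fork 4 of 16 tested genes rose and 0 fell, a share close to the 25.9% of all genes. The median of 0.74 was 0.13 without D2, 0.27 without D4, 0.35 without wt/wt oocyte 4 and 0.43 without the f/f oocyte. The calls numbered 6 without the f/f oocyte. Pola1, the catalytic subunit of polymerase alpha, rose by 1.25 (SE 0.35, adjusted p = 0.0158), from 23.3 to 44.4 CPM in control to 49.3 to 104.6 CPM in mutant oocytes; its call was lost with library totals (0.81, adjusted p = 0.160) and the replicate block. Rpa2, part of the single-strand binding complex, rose by 3.22 (SE 0.88, adjusted p = 0.0147). It stood between 0.409 and 3.32 CPM in control oocytes and at 24.7, 3.66, 2.85, 27.1 and 2.49 CPM in the mutant oocytes, so D1 and D4 lay highest. Rfc1 and Fen1, named after their values were seen, were the other called genes of this list.

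Among 11 tested E2F and retinoblastoma factors 2 rose and 2 fell (36.4%), with a median of -0.12 that was 0.072 without wt/wt oocyte 3. E2f8, a repressor among the E2F factors, fell by 1.88 (SE 0.58, adjusted p = 0.0264), from 5.33 to 14.8 CPM in control to 1.22 to 4.27 CPM in mutant oocytes, and lost its call in 8 of 22 alternatives. Rb1, which holds activating E2F factors in check, fell by 1.07 (SE 0.38, adjusted p = 0.0494) and lost its call in 11 of 23 alternatives. E2f2, an activator, rose by 2.02 (SE 0.66, adjusted p = 0.0341), with the f/f oocyte, at 20.6 CPM, within the mutant range of 10.97 to 43.3 CPM, and lost its call in 7 of 23 alternatives. Without the f/f oocyte the change of E2f2 was 3.16 (adjusted p = 0.00143). E2f6 had 0 counts in each control oocyte and 43 in the mutant oocytes, 37 of them in D4. It is 1 of the 2 called as higher, and it passed the filter on total counts through the mutant oocytes alone. Without D4 the mutant oocytes had 6 counts, a mean under the floor of 3 counts per oocyte, so no fold is given for E2f6. Called in this list were 0 of 10 tested without D4, 1 of 11 without D1, D2 or wt/wt oocyte 1, and 2 of 11 without wt/wt oocyte 4 or 5.

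**Figure D5:**
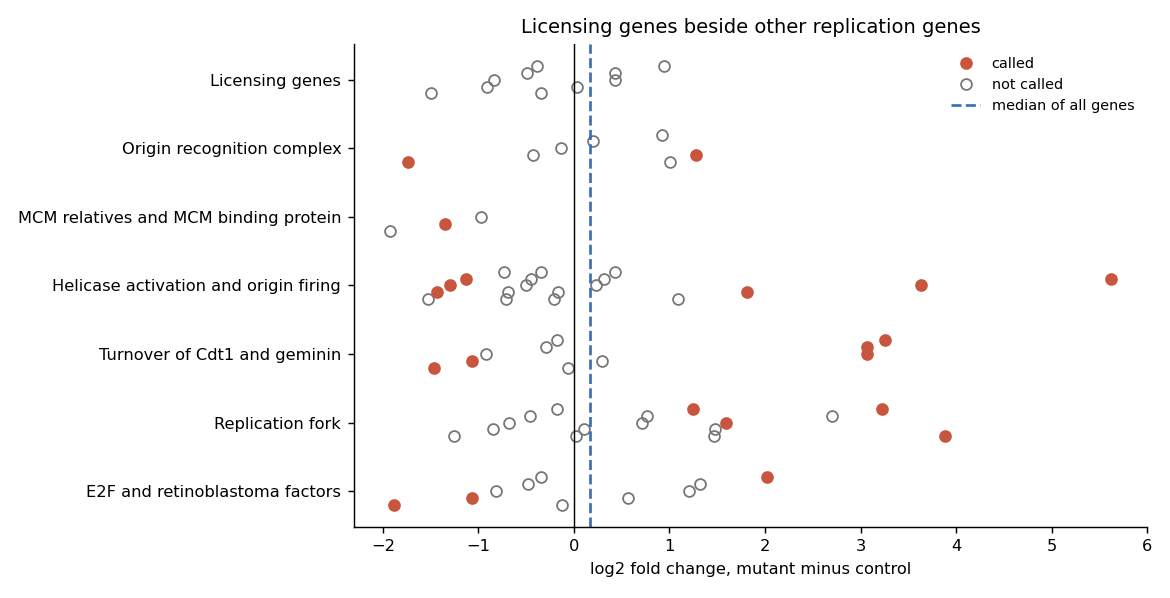
Log2 fold change, mutant minus control (x axis), of each tested gene in the licensing list and the related lists; filled points were called and the dashed line is the median of all genes tested, 0.17. E2f6, with no count in control oocytes, is left off. No licensing gene is filled, while filled points stand on both sides of 0 in several of the other lists.

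Against the wt/wt oocytes alone 0 of 10 licensing genes were called as well, where 31.5% of all genes were, and 1 of the 10 (Gmnn) was past the adjusted p. The f/f oocyte lay within the wt/wt range for Mcm4, Mcm7, Mcm10 and Gmnn. It lay above that range for Mcm2 and Mcm3 and below it for Mcm5, Mcm6, Cdc6 and Cdt1. For Mcm2 and Cdt1 this was the side away from the mutant oocytes, and for Mcm5, Mcm6 and Cdc6 the side on which most mutant oocytes lay.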

How the data were processed

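Single oocytes were sequenced by the authors from poly(A)-primed cDNA that reaches at most 3 kb inward of the 3′ end, in single-end reads of 49 bases. Reads were aligned to mm10 with TopHat 2.0.6, unique best alignments were kept, and reads per RefSeq gene were counted with HTSeq, version 0.5.3p9 per the labels. The deposited values are raw counts of 14 libraries. Libraries whose titles share an oocyte name were summed, which gave 10 oocytes, the number the methods state, and the 60% of genes with the highest total counts were tested with edgeR 4.0.16 in R 4.3.3 (quasi-likelihood test, TMM, Benjamini-Hochberg). The step was first tested on simulated data. CPM use TMM-adjusted library sizes, and fold changes are log2. Library totals set the precision: 3 counts correspond to 0.456 to 1.83 CPM, and floors and counting intervals cover counting error only.

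The members and gene lists were chosen with earlier results of these data known. Each member is named with its value in every oocyte. In each related list the called genes with the 2 smallest p in each direction are named, with Kdm1a and the genes that overlap or face a member within 1000 bases. Gene positions, lengths and overlaps come from GENCODE M21, matched by name for 22829 of 24064 genes, and promoters from RefSeq. Alternatives were DESeq2 1.42.0, limma 3.58.1, other scalings and filters, single libraries, thinned counts, removal of GC and length trends, and leaving out each oocyte. Replicate numbers shared by wt/wt and mutant oocytes were not used to pair them.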

Additional observations from a re-analysis of the deposited data

Results flagged for a closer look

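In a group of 4 or 5 oocytes, a value was singled out where its distance from the nearest other oocyte, as a share of the whole range, passed Dixon's 95% critical value. Of 36 groups examined for the licensing genes, Kdm1a and the Gmnn to Cdt1 ratio, 6 held such a value, where chance gives about 1 in 20, or 1.8. The f/f oocyte stood apart from the wt/wt oocytes for Mcm2 (874 CPM, gap ratio 0.869) and for Kdm1a (149 CPM, 0.805). Wt/wt oocyte 1 stood above the other wt/wt oocytes for Mcm3 (7.74 CPM, 0.863), a difference of a few counts. Wt/wt oocyte 5 stood above the other controls for Cdt1 (205 CPM, 0.724). Among mutant oocytes D4 stood above the others for Mcm3 (16.9 CPM, 0.742) and D7 for Kdm1a (4.99 CPM, 0.714). In these groups the Gmnn to Cdt1 ratio was taken on the log2 scale, where no value passed. On the linear scale, the scale of the CPM values, wt/wt oocyte 1 passed among the 4 wt/wt oocytes (3.98 Gmnn counts per Cdt1 count, gap ratio 0.840, just past the critical value), so the choice of scale decides this one; the linear scale was added after seeing the data and is not among the 36 groups.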

How the results depend on the processing

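Of the licensing genes, 0 were called with 18 of 23 alternatives. Library totals and the removal of GC and length trends each called 2 (Mcm2 and Gmnn, lower). Single libraries per oocyte called 1 (Cdt1, higher), and leaving out 1 oocyte gave 0 to 1 (Cdt1, without wt/wt oocyte 5 or without D7). With wt/wt controls, library totals called 5 and every library as its own sample called 2, all lower. The adjusted p alone, thinned counts and GC and length trends removed each called 1, lower. Leaving out 1 oocyte called 0 to 1 (1 lower without wt/wt oocyte 4, D2 or D3, 1 higher without wt/wt oocyte 5). The main fit with wt/wt controls called 31.5% of all genes. That share was not computed for these alternatives, so their counts have no background beside them. Of all genes, 1353 of 2384 calls were higher, against 963 of 2631 with library totals. The cause was not tested. On leaving out 1 oocyte, related replication genes called ranged from 12 (18.2%, without D1) to 24 (35.8%, without D7), and all genes called from 1607 (17.6%, without D1) to 2885 (31.5%, without f/f).

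The fit with the replicate block, on single libraries, called 966 genes in all, 9 replication-linked genes and 0 licensing genes. Deviations of same-numbered libraries had correlations of -0.029 (wt/wt oocyte 3 with D2), 0.094 (wt/wt oocyte 4 with D3) and -0.13 (wt/wt oocyte 5 with D3). These are too few, and no other pairs were set beside them, to tell whether the numbers pair the oocytes.

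The direction turned for Mcm3 (-0.081 with the replicate block, -0.21 without D4), for Mcm10 (-0.0074 with library totals) and for Mcm7 (-0.47 with library totals, -0.078 with every library as its own sample, -0.0024 with the replicate block, -0.24 with GC and length trends removed, -0.055 without wt/wt oocyte 1, -0.22 without D2). On leaving out 1 oocyte Mcm3 ranged from -0.21 to 0.64 and Mcm7 from -0.22 to 0.21. Mcm2, Mcm4, Mcm5, Mcm6, Cdc6, Cdt1 and Gmnn kept their direction in every alternative computed. Of 384 recomputed values of the 17 other named replication genes, 68 lost the call and 0 turned direction. Depth limits Mcm3, Mcm5 and Cdc6, which had under 20 counts in most oocytes.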
